A study of Arabidopsis thaliana with 24 samples.

Results

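The effect of constitutive CLE41 expression on the Arabidopsis thaliana transcriptome was compared between roots and shoots of 7-day-old seedlings. The comparison is a difference of differences: the change from wild type (WT) to 41-OX in roots, minus the same change in shoots. It used 15 of the 24 libraries of the series, which were selected by genotype, organ and depth and not by any expression value. These were 4 WT roots, 4 41-OX roots, 3 WT shoots (replicates 1, 3 and 4) and 4 41-OX shoots. WT is Col-0, and 41-OX is labelled as constitutive for CLE41. The labels do not give the promoter that drives CLE41, the number of transgenic lines or how many seedlings went into a sample. WT shoot replicate 2 was left out because it held 167131 counts, and the other 8 libraries are of the pxy-5 mutant. Within this text, "root change" and "shoot change" are the log2 fold changes of 41-OX against WT in each organ, and "difference" is root change minus shoot change.

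CLE41 encodes a precursor of TDIF, a secreted peptide that is made in the phloem and bound by PXY, a receptor kinase of the procambium and cambium. These are the dividing tissues between xylem and phloem. TDIF signalling through PXY maintains division through the homeodomain factor WOX4 and restrains xylem differentiation through GSK3 kinases and the factor BES1. Plants that make TDIF outside the phloem are known for extra vascular cells in disordered bundles. The series asks, by its title, which genes regulate vascular proliferation, and the comparison asks which of them respond to CLE41 differently above and below ground.

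The 15 libraries held 7033091 to 12226066 counts each. The samples are labelled as biological replicates, but nothing says whether they came from separate plates or sowings. Replicates of a group differed by more than counting error, with a chi-square per degree of freedom of 2.29 to 5.82, and of 13.98 to 19.4 for the pairs that include 41-OX root 4. Organ-specific genes were picked in the pxy libraries, outside the comparison (shoots 1 to 4 and roots 1, 3 and 4), as genes with at least 20 CPM, which is counts scaled to a common library total, in 1 organ and at least 50-fold less in the other. The library labelled pxy root 2 was left out of these choices and of all organ ratios, because shoot-specific genes stood there at 92.9% of their WT shoot level. The median level of 151 root-specific genes was 0.875%, 0.970% and 1.42% of the WT root mean in WT shoots, and 5.32%, 6.87%, 5.13% and 5.67% in 41-OX shoots, with no overlap between the groups. The median level of 419 shoot-specific genes was 0.583% to 2.23% of the WT shoot mean in WT roots, and 0.531%, 0.559%, 2.18% and 11.5% in 41-OX roots 1 to 4. 41-OX root 4 therefore stood apart with shoot transcripts, and all 4 41-OX shoots stood apart with root transcripts. The same genes were at 82.5% to 88.4% in 41-OX shoots, below all 3 WT shoots. In bulk samples, fewer cells of a type and less RNA per cell cannot be told apart.

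**Figure D1:**
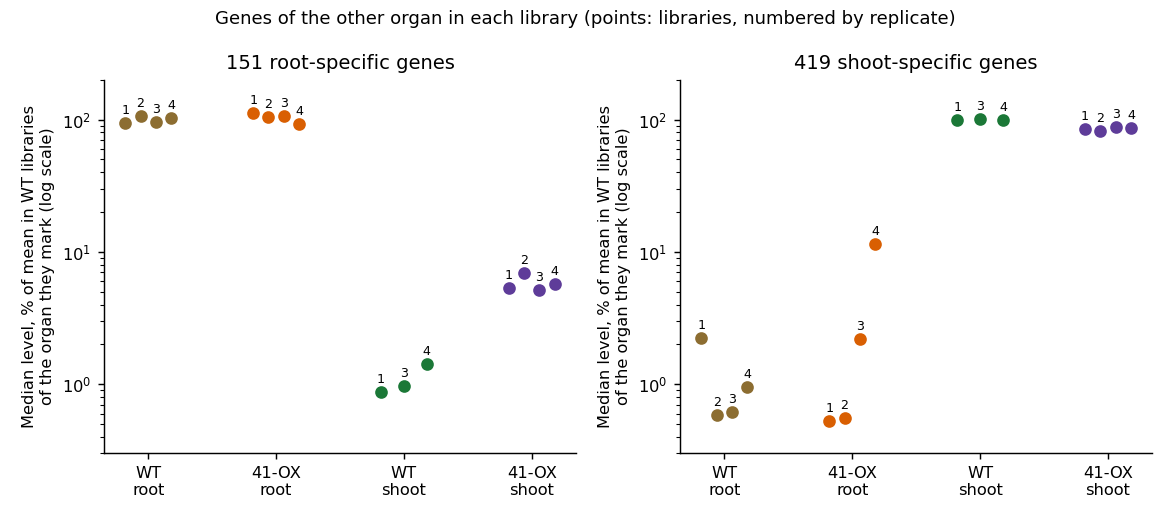
Median level of root-specific (left) and shoot-specific (right) genes in each of the 15 libraries, as a percent of the WT mean in the organ they mark, on a log axis; each point is a library with its replicate number. 41-OX shoots lie at 5.13% to 6.87% for root-specific genes, above WT shoots at 0.875% to 1.42%, and 41-OX root 4 lies at 11.5% for shoot-specific genes.

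Markers of root hair and epidermis, endodermis and leaf mesophyll showed the same picture. The summed level of 6 root hair and epidermis markers was 13.1 to 19.1 CPM in WT shoots and 88.8 to 113 CPM in 41-OX shoots, against 574 to 641 CPM in WT roots. The summed level of 5 endodermis markers was 38.8 to 55.6 CPM in WT shoots and 87.9 to 121 CPM in 41-OX shoots. In roots, the 4 leaf mesophyll markers summed to 74.2 to 291 CPM in WT and to 74.8, 84.1, 284 and 1356 CPM in 41-OX roots 1 to 4. No marker of these 3 lists was at 0 in any library. MUTE, a stomatal lineage factor, was at 0 in all 4 WT roots. Vascular markers did not move alike in shoots. Phloem markers summed to 138 to 154 CPM in WT shoots and 92.0 to 104 CPM in 41-OX shoots. Procambium and cambium markers summed to 46.2 to 52.4 CPM in WT shoots and 59.7 to 78.2 CPM in 41-OX shoots. The xylem markers of WT and 41-OX shoots overlapped. Each of the 15 libraries carried the defining markers of its labelled organ. The part of this organ RNA in the results below was not tested. The organ ratio, log2 of root over shoot in pxy libraries, is given beside some of them. Lists without a ratio below include lignin (median 1.56), cytokinin (1.05), salicylate (0.92), phloem (0.28) and HD-ZIP III and polarity (-0.78). Most named genes are given without a ratio. IRT1, BAM3, REV and MP, whose shoot rises are described below, held more counts in every WT root than in every WT shoot.

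CLE41, the gene expressed constitutively, was higher in 41-OX in both organs and more so in roots. In roots, its level, in CPM scaled by TMM normalisation, was 10.3, 9.60, 10.2 and 8.44 in WT and 32.6, 31.3, 33.4 and 25.9 in 41-OX. In shoots it was 15.8, 22.2 and 19.6 in WT and 29.6, 28.4, 30.7 and 28.3 in 41-OX. The groups did not overlap in either organ, and the ranges of 41-OX roots and 41-OX shoots overlapped each other. The mean ratio was 3.21 in roots and 1.497 in shoots. The root change was 1.68 (SE 0.11, edgeR adjusted p = 2.33e-08), the shoot change 0.60 (SE 0.12, adjusted p = 0.00102) and the difference 1.08 (SE 0.16, adjusted p = 0.000103). Counts are per locus, so transcripts of the transgene and of the native gene are summed. CLE42 and CLE44, which encode the same or a near-identical peptide, were not called in either organ.

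PXY, the receptor gene, went the other way. In roots it stood at 21.4, 19.1, 24.0 and 14.9 CPM in WT and at 14.9, 15.9, 17.63 and 13.1 CPM in 41-OX. In shoots it stood at 10.1, 9.26 and 11.6 CPM in WT and at 15.99, 17.5, 19.1 and 16.1 CPM in 41-OX. The root groups overlapped and the shoot groups did not. PXY rose in 41-OX shoots by 0.74 (SE 0.16, adjusted p = 0.00205), its root change of -0.37 (SE 0.13) was not called (adjusted p = 0.0756), and the difference was -1.11 (SE 0.21, adjusted p = 0.000784). In WT, all 4 roots held more PXY than all 3 shoots. The organ ratio of PXY is not given from the pxy libraries, since they carry a pxy allele.

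Across 21295 genes tested, the difference was called for 3816 (17.9%) at a Benjamini-Hochberg adjusted p under 0.05. The root change was above the shoot change for 1302 genes (6.11%) and below it for 2514 (11.8%). Within organs, 944 genes (4.43%) were higher and 1570 (7.37%) lower in 41-OX roots, and 3128 (14.7%) were higher and 2459 (11.5%) lower in 41-OX shoots, or 26.2% of genes tested in either direction. Of the 3816 genes, 2354 (61.7%) were called in shoots alone, 615 in roots alone, 394 (1.85% of those tested) in both organs in opposite directions, 133 in both organs in the same direction, and 320 in neither organ by itself. The opposite group comprised 73 genes (0.343% of those tested) that rose in roots and fell in shoots, and 321 (1.51%) that fell in roots and rose in shoots. The levels of WT and 41-OX did not overlap for 17.5% of genes tested in roots and 35.3% in shoots. The median over all genes tested was -0.01 for the difference, 0.02 for the root change and 0.01 for the shoot change. Without 41-OX root 4, the difference was called for 1466 genes above and 2394 below, and 1443 genes were higher in 41-OX roots. Without WT root 3, 983 genes were lower in 41-OX roots, and without 41-OX root 2, 1018.

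**Figure D2:**
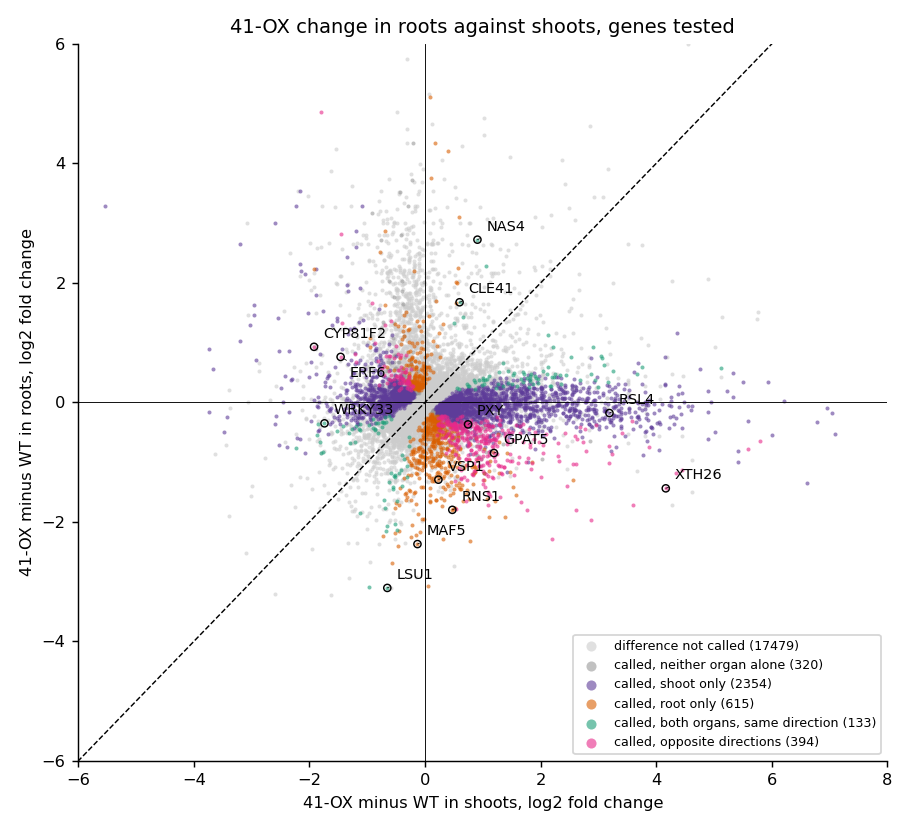
Root change against shoot change (log2, 41-OX minus WT) for the genes tested, coloured by the kind of difference; the dashed line marks equal changes, 13 genes named in the text are labelled, and 4 points lie outside the axes. Most called genes lie along the shoot axis (2354 called in shoots alone), and LSU1, MAF5, RNS1 and VSP1 lie along the root axis.

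The difference followed the organ in which a gene is normally expressed. Among 511 genes over 16-fold higher in pxy roots than in pxy shoots, 401 (78.5%) had a root change below the shoot change and 0 above it, with a median root change of 0.03 and a median shoot change of 2.07. Among 775 genes over 16-fold higher in pxy shoots, 56 (7.23%) were called above and 0 below, against 6.11% and 11.8% of all genes tested. Their median root change was 1.34 and their median shoot change -0.30. The 419 shoot-specific genes stood at 0.531%, 0.559% and 2.18% in 41-OX roots 1 to 3 and at 11.5% in root 4. The part of root 4 in the median root change of 1.34 was not tested. Among 7352 genes within 1.5-fold between the organs in pxy libraries, 437 (5.94%) were called above and 313 (4.26%) below. With the p-values of the same fit adjusted over these 7352 genes alone, 292 (3.97%) were called above and 215 (2.92%) below. The genes that fell in roots and rose in shoots were mostly root genes: 211 of 321 (65.7%) were over 4-fold higher in pxy roots, against 12.05% of all genes tested. Of the 1512 genes called below in shoots alone, 899 (59.5%) were over 4-fold higher in pxy roots.

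**Figure D3:**
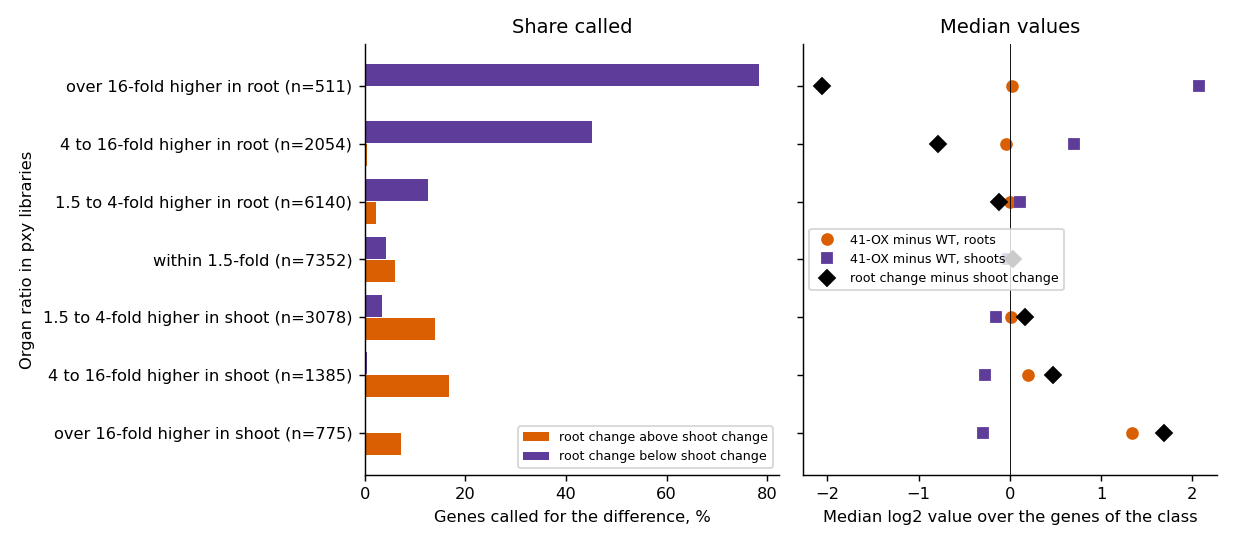
Share of genes called for the difference (left, percent of each class) and median log2 changes (right) in 7 classes of organ ratio in the pxy libraries. The share below rises to 78.5% in the class most root-high, where the median shoot change is 2.07, and the class within 1.5-fold has 5.94% above and 4.26% below.

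In the TDIF-PXY list, 1 of 22 measured members (CLE41) was called above and 3 (PXY, WOX4 and TMO6) below. That is 18.2% of the list, near the 17.9% of all genes tested. WOX4, the homeodomain target of TDIF, stood at 2.34, 1.57, 2.49 and 1.78 CPM in WT roots and 1.04, 0.678, 1.102 and 1.03 CPM in 41-OX roots, without overlap. Its shoot levels were 8.61, 10.2 and 8.83 CPM in WT and 10.5, 9.83, 8.69 and 7.80 CPM in 41-OX, with overlap. WOX4 fell in 41-OX roots by 1.07 (SE 0.24, adjusted p = 0.00596), its shoot change was -0.01, and the difference was -1.06 (SE 0.29, adjusted p = 0.0151). The call rested on WT root 3, without which the adjusted p was 0.0519. TMO6, a Dof transcription factor of early vascular tissue, rose in shoots by 0.35 (SE 0.09) and had a difference of -0.47 (SE 0.12, adjusted p = 0.00801). The GSK3 genes BIN2, BIL1 and BIL2 and their targets BES1 and BZR1 had differences from -0.13 to 0.09, and none was called in any contrast; these 5 were chosen after their values were seen.

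Among 19 measured cambium and vascular regulators, 1 was called above and 4 below, with a median difference of -0.24. The 26.3% of the list so called stand against 17.9% of all genes tested, 6.11% above and 11.8% below. MP, the auxin response factor MONOPTEROS that starts vascular formation, rose in shoots from 18.4, 21.8 and 17.9 CPM in WT to 26.5, 40.0, 31.2 and 30.5 CPM in 41-OX, a change of 0.72 (SE 0.14, adjusted p = 0.000568). In roots MP stood at 33.8 to 36.4 CPM in WT and 29.5 to 41.7 CPM in 41-OX, so that these groups overlapped. PLT5, an AP2 factor of meristems, rose in shoots by 1.31 (SE 0.24) with a root change of -0.04, and the difference was -1.35 (SE 0.35, adjusted p = 0.00975). CYCD3-1, a D-type cyclin of the cambium, rose in shoots by 0.51 (SE 0.12, adjusted p = 0.00424) with a root change of -0.17. ANT, an AP2 factor that promotes organ growth and cambial division, fell in roots by 0.69 (SE 0.19, adjusted p = 0.0217) and was not called in shoots. PLT5 and CYCD3-1 were within 1.5-fold between organs in pxy libraries. Reads of MP and CYCD3-1 could be shared with annotated genes that overlap them, since the strand setting of the counting is not given in the sources used here.

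REV, PHV and ATHB15, class III HD-ZIP genes that specify xylem and the upper side of organs, rose in shoots. Of 13 measured members of the HD-ZIP III and polarity list, 5 rose in shoots and 0 fell, 0 were called in roots, and for the difference 4 were below and 0 above. The list's median difference was -0.35. For the difference 30.8% of the list was called and in shoots 38.5%, against 17.9% and 26.2% of all genes tested. In roots 11.8% of all genes tested were called. REV stood at 21.2, 26.4 and 17.4 CPM in WT shoots and at 37.2, 39.1, 31.5 and 39.9 CPM in 41-OX shoots, without overlap. Its root levels were 65.8 to 71.6 CPM in WT and 61.4 to 74.8 CPM in 41-OX. The shoot change was 0.76 (SE 0.12, adjusted p = 8.73e-05) and the difference -0.77 (SE 0.15, adjusted p = 0.00115). PHV had a difference of -0.50 (SE 0.12, adjusted p = 0.00461) and ATHB15 one of -0.35 (SE 0.10, adjusted p = 0.0146). The call of ATHB15 was lost without WT root 3 (adjusted p = 0.0551) or WT shoot 1 (adjusted p = 0.0538). KAN2, a GARP factor of the lower leaf side, had a difference of -0.98 (SE 0.31, adjusted p = 0.035), and its call was lost in 8 of the 15 fits that left out a library, with adjusted p of up to 0.106.

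Xylem genes were called for the difference at 16.7%, lignin genes at 30.8% and phloem genes at 36.4% of their lists, against 17.9% of all genes tested. Of 24 measured genes of xylem and secondary walls, 1 was above and 3 below, with a median difference of -0.17, and the list's median organ ratio was 1.89 towards roots. MYB58 and MYB63, related activators of lignin genes, both fell in roots and rose in shoots. MYB58 fell in roots by 0.52 (SE 0.15, adjusted p = 0.0277) and rose in shoots by 0.77 (SE 0.19, adjusted p = 0.00563). The master NAC factors VND1 to VND7 and the secondary wall cellulose synthase genes CESA4, CESA7 and CESA8 were not called for the difference. In the lignin list 4 of 13 were below and 0 above; 4CL2 had a difference of -0.77 (SE 0.18, adjusted p = 0.00525) and CCOAOMT1 one of -0.49 (SE 0.12, adjusted p = 0.00526), and both encode enzymes of monolignol synthesis.

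In the phloem list 2 of 22 were above and 6 below. SUC2, the sucrose carrier that loads companion cells, stood at 112, 100.4 and 118 CPM in WT shoots and at 60.0, 73.8, 66.9 and 59.5 CPM in 41-OX shoots. Root levels were 40.4 to 51.6 CPM in WT and 41.8 to 51.2 CPM in 41-OX, so only the shoot groups were apart. SUC2 fell in shoots by 0.76 (SE 0.10, adjusted p = 1.27e-05), and the difference was 0.75 (SE 0.14, adjusted p = 0.00059). PP2-A1, a phloem lectin, was the other member above, with a difference of 0.56 (SE 0.11, adjusted p = 0.00154). The members below include the protophloem regulators SMXL5 with a difference of -0.82 (SE 0.16, adjusted p = 0.000936), BAM3 with -0.82 (SE 0.17, adjusted p = 0.00166) and OPS with -1.07 (SE 0.25, adjusted p = 0.00416), each of which rose in shoots. OPS is named outside the rule for naming genes and was chosen after its values were seen.

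Cell cycle genes rose in shoots more often than they were called for the difference. Of 28 measured members, 13 rose and 2 fell in shoots, and 1 rose and 1 fell in roots, while the difference was called above for 1 and below for 5. In shoots 53.6% of the list was called and for the difference 21.4%, against 26.2% and 17.9% of all genes tested. In roots 7.14% of the list was called, against 11.8% of all genes tested. The median shoot change was 0.30 and the median root change 0.08, and the list's median organ ratio was 1.52 towards roots. CYCD3-2, a D-type cyclin, was the member above, with a shoot change of -0.36 (SE 0.08) and a difference of 0.53 (SE 0.10, adjusted p = 0.00118). The mitotic genes CYCB1-1, CYCB1-2 and CDC20.1 rose in shoots by 0.61, 0.56 and 0.63, and their differences were not called (adjusted p = 0.0609, 0.0863 and 0.0516). These 3 were chosen after their values were seen.

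**Figure D4:**
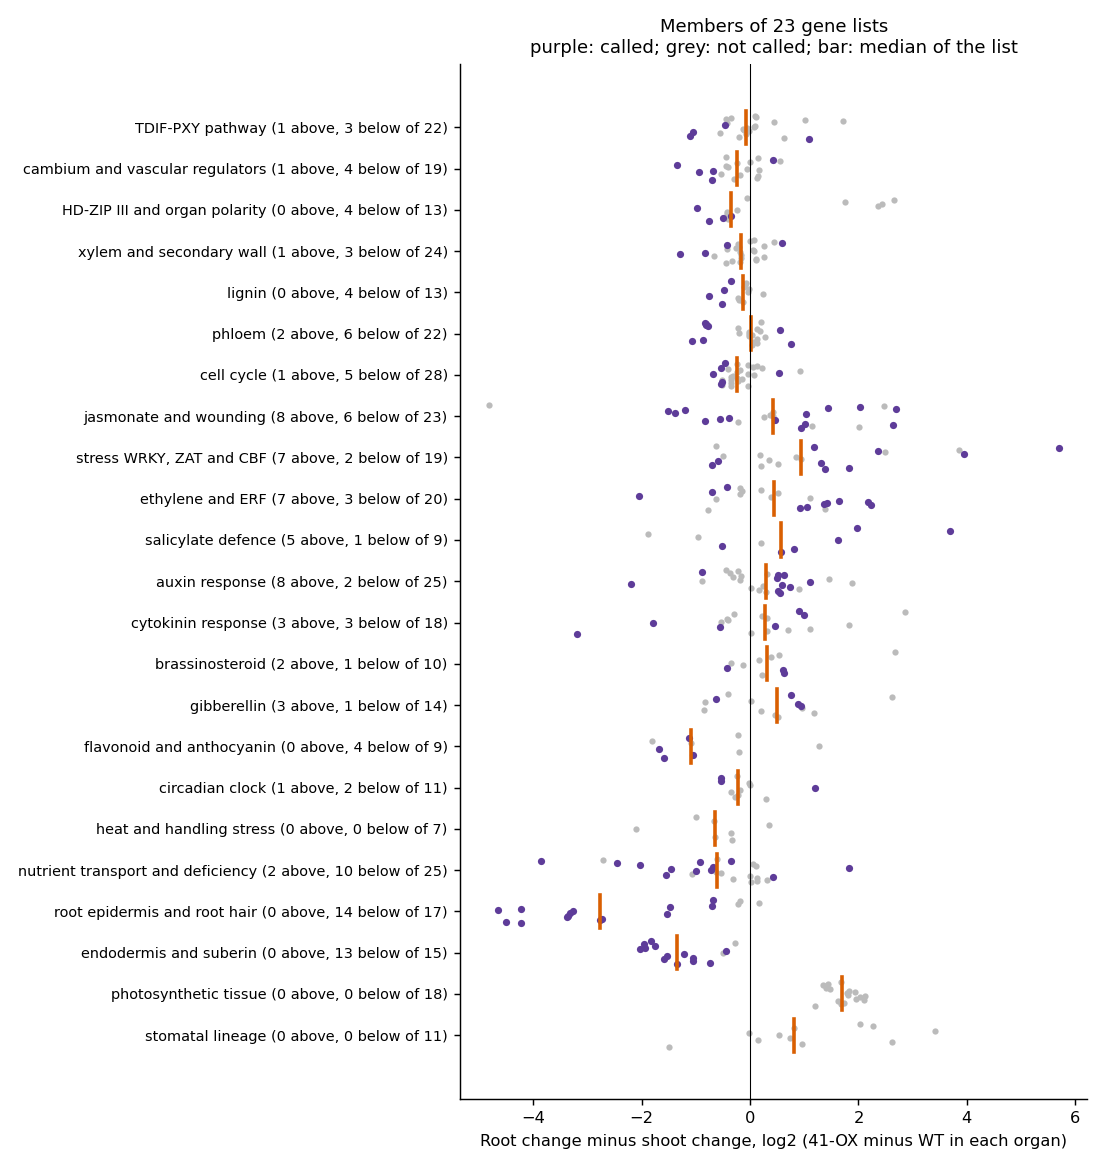
Difference (log2, root change minus shoot change) of each measured member of 23 gene lists; purple points passed the test, grey points did not, and the orange bar is the list's median. Stress, jasmonate, ethylene and salicylate lists have medians above 0, and root hair (-2.77) and endodermis and suberin (-1.35) have the lowest medians.

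Many stress, wound and defence regulators fell in 41-OX shoots, and most were not called in 41-OX roots. Of 19 measured WRKY, ZAT and CBF stress genes, 13 fell and 1 rose in shoots, 4 fell and 0 rose in roots, and the difference was called above for 7 and below for 2. The list's median shoot change was -1.40, its median root change -0.01 and its median difference 0.94. Its median organ ratio was -0.07, but only 3 members were within 1.5-fold between organs in pxy libraries. Of these 3, 0 were called above and 0 below, with a median difference of 0.17. In WT shoots 1, 3 and 4, ZAT10 held 80, 267 and 52 counts and ZAT12 held 58, 265 and 65. WRKY33 held 713, 1004 and 609 there, and the library totals were 8754010, 11052295 and 7868951. ZAT10 and ZAT12 were chosen after their values were seen, and the list counts were not run without WT shoot 3. Of 20 measured ethylene and ERF genes, 10 fell and 3 rose in shoots, 2 fell and 1 rose in roots, and the difference was above for 7 and below for 3. Of 9 measured salicylate genes, 5 fell and 2 rose in shoots, 1 fell and 2 rose in roots, and 5 were above and 1 below. Of 23 measured jasmonate and wounding genes, 13 fell and 1 rose in shoots, 5 fell and 0 rose in roots, and 8 were above and 6 below. The shares of these lists called for the difference were, in this order, 47.4%, 50%, 66.7% and 60.9%, against 17.9% of all genes tested. Their shares called in shoots were 73.7%, 65%, 77.8% and 60.9%, against 26.2% of all genes tested. The smaller root counts of these lists stand against 11.8% of all genes tested.

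ERF6, an ethylene response factor induced by stress, changed in opposite directions. In roots the values were 13.6, 12.1, 13.2 and 10.7 CPM in WT and 23.03, 22.4, 21.1 and 17.5 CPM in 41-OX. Shoot levels were 47.3, 47.9 and 44.9 CPM in WT and 14.7, 15.2, 22.5 and 15.99 CPM in 41-OX. No groups overlapped within an organ. ERF6 rose in roots by 0.76 (SE 0.12, adjusted p = 0.00033) and fell in shoots by 1.46 (SE 0.13, adjusted p = 1.53e-07), a difference of 2.22 (SE 0.18, adjusted p = 1.66e-07). Its relative ERF5 fell in both organs, by 0.47 (SE 0.12, adjusted p = 0.0168) in roots and by 1.52 (SE 0.15, adjusted p = 7.34e-07) in shoots. ERF4, a repressor of the same family, fell in shoots by 1.01 (SE 0.10) and had a root change of -0.09. ACO1, an enzyme of the last step of ethylene synthesis, rose in shoots from 5.17, 4.93 and 6.18 CPM to 21.2, 26.5, 12.5 and 17.2 CPM and had a root change of -0.18.

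WRKY33, a regulator of camalexin synthesis and of resistance to necrotrophs, fell in both organs and more in shoots. It stood at 94.4, 101 and 89.6 CPM in WT shoots and at 24.2, 30.3, 27.3 and 31.7 CPM in 41-OX shoots. In roots it was at 47.1, 63.8, 65.2 and 51.3 CPM in WT and at 46.2, 41.4, 46.1 and 44.3 CPM in 41-OX. The groups were apart in both organs, narrowly so in roots. The root change was -0.35 (SE 0.10, adjusted p = 0.0253), the shoot change -1.74 (SE 0.11, adjusted p = 6.25e-09) and the difference 1.39 (SE 0.15, adjusted p = 2.65e-06). WRKY40, a repressor of defence genes, fell in shoots by 1.83 (SE 0.17, adjusted p = 2.53e-07), and its root change was 0.00 (SE 0.18). WRKY60, which acts with WRKY40, rose in shoots by 0.94 (SE 0.13, adjusted p = 2.66e-05). COR78, a cold and drought response gene, fell in shoots by 1.17 (SE 0.15) with a root change of 0.01. Reads of WRKY33 and WRKY40 could be shared with overlapping genes.

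CYP81F2, a cytochrome P450 of indole glucosinolate modification, went in opposite directions like ERF6. It stood at 1.67, 1.27, 1.40 and 1.07 CPM in WT roots and 2.53, 2.15, 2.46 and 3.29 CPM in 41-OX roots. In shoots the values were 20.4, 19.5 and 17.8 CPM in WT and 4.24, 5.68, 7.40 and 3.17 CPM in 41-OX. No groups overlapped within an organ. The root change was 0.93 (SE 0.26, adjusted p = 0.0248), the shoot change -1.92 (SE 0.19, adjusted p = 6.75e-07) and the difference 2.85 (SE 0.33, adjusted p = 5.26e-06).

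The upstream sequences of WRKY33, CYP81F2 and ERF6 are shown because these defence genes moved together in shoots and apart in roots. Each is the 250 bases before the annotated gene start in TAIR10.1, 5′ to 3′ on the strand of the gene, read from the RefSeq genome. Capitals mark the W-box core TTGAC, which WRKY factors bind, and the GCC box GCCGCC, which ERF factors bind, on either strand. The windows lie at chr2:16107985-16108234 (plus strand), chr5:23187590-23187839 (plus strand) and chr4:9754162-9754411 (minus strand), and none overlaps another annotated gene.
WRKY33: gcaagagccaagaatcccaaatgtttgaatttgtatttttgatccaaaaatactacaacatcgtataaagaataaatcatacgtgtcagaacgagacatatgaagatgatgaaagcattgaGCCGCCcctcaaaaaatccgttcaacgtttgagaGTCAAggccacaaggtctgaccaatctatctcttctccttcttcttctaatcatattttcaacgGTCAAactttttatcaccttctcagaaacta
CYP81F2: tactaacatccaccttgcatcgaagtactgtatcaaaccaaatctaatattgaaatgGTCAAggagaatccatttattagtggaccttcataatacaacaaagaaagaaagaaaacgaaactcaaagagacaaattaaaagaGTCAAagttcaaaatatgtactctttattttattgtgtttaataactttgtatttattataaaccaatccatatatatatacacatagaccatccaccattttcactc
ERF6: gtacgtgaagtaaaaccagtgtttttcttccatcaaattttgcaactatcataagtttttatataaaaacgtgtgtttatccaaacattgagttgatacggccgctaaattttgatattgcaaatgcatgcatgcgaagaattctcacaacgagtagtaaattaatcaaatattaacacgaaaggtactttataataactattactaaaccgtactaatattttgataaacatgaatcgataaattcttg
WRKY33 holds 2 W-box cores and 1 GCC box, CYP81F2 holds 2 W-box cores, and neither motif is in this window of ERF6. Of the 27 members of the jasmonate, stress, ethylene and salicylate lists called above, 14 windows (51.9%) hold TTGAC and 2 (7.41%) hold GCCGCC, against 45.2% and 1.90% of 20516 tested genes with a window. Over all genes called above, 47.4% of windows hold TTGAC and 1.66% hold GCCGCC. Over all genes called below, the shares are 50.3% and 1.58%, so the TTGAC share is not particular to the listed genes. A match describes the letters of the window and is not evidence of binding.

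Jasmonate genes did not share 1 pattern. AOS, an enzyme of jasmonate synthesis, stood at 89.3, 86.3 and 88.3 CPM in WT shoots and 38.1, 50.1, 51.2 and 46.9 CPM in 41-OX shoots. In roots it stood at 20.08 to 24.4 CPM in WT and 19.4 to 26.8 CPM in 41-OX, with overlap. AOS fell in shoots by 0.92 (SE 0.10, adjusted p = 2.76e-06), and the difference was 0.94 (SE 0.15, adjusted p = 0.000154). LOX4, a lipoxygenase of the same pathway and within 1.5-fold between organs in pxy libraries, fell in shoots by 1.81 (SE 0.34, adjusted p = 0.000561), had a root change of 0.82 that was not called (adjusted p = 0.0981), and a difference of 2.63 (SE 0.46, adjusted p = 0.000429). WT roots held 8, 9, 20 and 21 counts of LOX4, and WT shoots held 32, 54 and 21. VSP1, a vegetative storage protein induced by jasmonate, moved instead in roots. It stood at 66.5, 74.2, 58.4 and 63.5 CPM in WT roots and 28.6, 27.7, 26.3 and 24.3 CPM in 41-OX roots, without overlap. In shoots it was at 16.2, 10.7 and 15.7 CPM in WT and 15.6, 19.1, 15.6 and 15.2 CPM in 41-OX, with overlap. VSP1 fell in roots by 1.29 (SE 0.11, adjusted p = 1.1e-07), and the difference was -1.52 (SE 0.18, adjusted p = 6.29e-06). VSP2 fell in roots by 1.09 (SE 0.13, adjusted p = 1.17e-05) with a shoot change of 0.12. VSP1 and VSP2 are neighbouring copies, and how reads were split between them is uncertain. AOC2, another enzyme of jasmonate synthesis, fell in both organs, by 0.87 in roots (adjusted p = 0.00418) and by 0.65 in shoots (adjusted p = 0.00233); it was chosen after its values were seen.

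FMO1 and ALD1, enzymes of pipecolate metabolism in systemic immunity, were called higher in both organs, and both were chosen after their values were seen. Their root changes were 1.53 and 1.24 (edgeR adjusted p = 0.000728 and 0.00124). Their shoot changes of 2.498 and 3.13 (adjusted p = 0.0117 and 0.0437) rest on few counts. FMO1 held 2, 1 and 2 counts in WT shoots and 4, 15, 10 and 7 in 41-OX shoots. ALD1 held 1, 0 and 1 against 2, 8, 10 and 4. Both held more counts in every WT root than in any WT shoot, and the part of root RNA in these shoot values was not tested. EDS1, PAD4, WRKY70 and CBP60G, regulators of salicylate defence, fell in shoots and were not called in roots. EDS1 and PAD4, partners in immune signalling, had shoot changes of -0.54 (SE 0.09, adjusted p = 0.000162) and -0.69 (SE 0.17, adjusted p = 0.00464), and root changes of 0.03 and 0.12. The call of the difference for PAD4 was lost without WT shoot 3 (adjusted p = 0.0540). WRKY70, a node between salicylate and jasmonate signalling, stood at 20.5, 34.5 and 10.6 CPM in WT shoots and 5.23, 4.14, 6.76 and 3.44 CPM in 41-OX shoots. The WT shoots varied widely, but the groups did not overlap, and the shoot change was -2.22 (SE 0.33, adjusted p = 0.000192). CBP60G, a regulator of salicylate synthesis, had a difference of 3.69 (SE 0.92, adjusted p = 0.0113), and among 41-OX roots it stood at 0.298, 0.565 and 0.170 CPM in replicates 1 to 3 and at 2.67 CPM in replicate 4.

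Auxin genes were called above more often than below, 8 against 2 of 25 measured, with a median difference of 0.30. The 40.0% of the list so called stand against 17.9% of all genes tested. The list's median organ ratio was -1.14, towards shoots. PIN7, an auxin efflux carrier, stood at 42.1 to 44.6 CPM in WT roots and 49.4 to 59.4 CPM in 41-OX roots, and at 131 to 151 CPM in WT shoots and 111 to 128 CPM in 41-OX shoots. PIN7 rose in roots by 0.35 (SE 0.07, adjusted p = 0.00314) and fell in shoots by 0.28 (SE 0.08, adjusted p = 0.0103). PIN3 rose in roots by 0.34 (SE 0.07, adjusted p = 0.00418), and its shoot change of -0.18 was not called. IAA14, a repressor of auxin response, fell in shoots by 0.80 (SE 0.10, adjusted p = 6.32e-06). IAA20, another member of that family, rose in shoots from 0.530, 1.31 and 2.65 CPM to 9.05, 5.80, 2.90 and 6.87 CPM and had a difference of -2.19 (SE 0.60, adjusted p = 0.0156).

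Of 18 measured cytokinin genes, 7 fell and 2 rose in shoots, 2 fell and 2 rose in roots, and the difference was called above for 3 and below for 3. For the difference 33.3% of the list was called, against 17.9% of all genes tested. In shoots 9 of the 18 were called, against 26.2% of all genes tested, and the median shoot change was -0.28. In roots 22.2% of the list was called, against 11.8% of all genes tested. ARR16, a type-A response regulator within 1.5-fold between organs in pxy libraries, stood at 6.28, 10.5, 8.42 and 9.24 CPM in WT roots and 3.13, 2.03, 3.98 and 3.70 CPM in 41-OX roots. The shoot libraries held 7.81, 10.7 and 6.18 CPM in WT and 14.6, 9.95, 9.49 and 10.04 CPM in 41-OX. The root groups were apart and the shoot groups overlapped. ARR16 fell in roots by 1.40 (SE 0.22, adjusted p = 0.000252), and the difference was -1.79 (SE 0.32, adjusted p = 0.000432). ARR3, of the same class but over 16-fold higher in pxy roots than shoots, rose in shoots by 3.0998 (SE 0.22) with a root change of -0.10. ARR9 fell in shoots by 0.59 (SE 0.08, adjusted p = 1.46e-05), and ARR8 rose in shoots by 0.40 (SE 0.08, adjusted p = 0.000774).

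Of 10 measured brassinosteroid genes, 2 were above and 1 below, and of 14 measured gibberellin genes, 3 were above and 1 below. These are 30.0% and 28.6% of the lists, against 17.9% of all genes tested. CPD, an enzyme of brassinosteroid synthesis, rose in roots by 0.32 (SE 0.09, adjusted p = 0.023) and fell in shoots by 0.30 (SE 0.09, adjusted p = 0.0215). RGA1, a DELLA repressor of growth, fell in shoots by 0.61 (SE 0.11, adjusted p = 0.000282) with a root change of 0.15. GA2OX6, a gibberellin-inactivating oxidase, fell in shoots by 0.98 (SE 0.15, adjusted p = 0.000137). GASA4, a gibberellin-responsive peptide gene, rose in both organs: it stood at 250.5 to 292 CPM in WT and 329 to 381 CPM in 41-OX roots, and at 297 to 385 CPM in WT and 609 to 766 CPM in 41-OX shoots. The shoot rise of 1.01 (SE 0.10) exceeded the root rise of 0.38 (SE 0.09), with a difference of -0.63 (SE 0.13, adjusted p = 0.00193).

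Most flavonoid genes rose in shoots, and some fell in roots. Of 9 measured members, 3 fell and 0 rose in roots, and 6 rose and 0 fell in shoots. These are 33.3% of the list in roots and 66.7% in shoots, against 11.8% and 26.2% of all genes tested. For the difference 4 were called below and 0 above (44.4%, against 17.9% of all genes tested), with a median of -1.09. FLS1, flavonol synthase, stood at 23.01, 29.2, 29.8 and 19.1 CPM in WT roots and 12.2, 14.4, 10.6 and 10.3 CPM in 41-OX roots. In shoots it stood at 6.62, 7.34 and 5.74 CPM in WT and 10.6, 10.7, 7.56 and 10.6 CPM in 41-OX. No groups overlapped within an organ, and the difference was -1.68 (SE 0.25, adjusted p = 8.28e-05). CHS, chalcone synthase, the entry enzyme of the pathway, fell in roots by 0.79 (SE 0.15, adjusted p = 0.00198) and rose in shoots by 0.80 (SE 0.21, adjusted p = 0.0115). CHI, the next enzyme, fell in roots by 0.93 (SE 0.22, adjusted p = 0.00831), and its difference of -1.06 (adjusted p = 0.0188) was lost in 4 of the 15 fits that left out a library, at adjusted p of up to 0.0522.

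Clock genes were called for 1 above and 2 below of 11 (27.3%, against 17.9% of all genes tested), and heat stress genes for 0 of 7. ELF4 and ELF3, components of the evening complex, rose in shoots by 0.71 (SE 0.10, adjusted p = 3.91e-05) and 0.49 (SE 0.10, adjusted p = 0.000904), with root changes of 0.18 and -0.06. PRR9, a morning clock repressor, fell in shoots by 1.27 (SE 0.22, adjusted p = 0.000382), and its difference of 1.20 was called (adjusted p = 0.0209) except without WT shoot 3 (adjusted p = 0.0517).

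More nutrient genes were called below than above, 10 against 2 of 25 measured, and the list's median organ ratio was 1.57 towards roots. For the difference 48.0% of the list was called, against 17.9% of all genes tested. LSU1, a gene of sulfur deficiency, fell far more in roots than in shoots. Its root levels were 12.3, 9.60, 13.4 and 10.3 CPM in WT and 1.79, 0.565, 0.848 and 1.95 CPM in 41-OX. Its shoot levels were 9.14, 11.3 and 8.83 CPM in WT and 5.66, 5.45, 5.63 and 8.19 CPM in 41-OX. No groups overlapped within an organ. The root change was -3.11 (SE 0.24, adjusted p = 8.62e-08), the shoot change -0.65 (SE 0.22, adjusted p = 0.038) and the difference -2.45 (SE 0.34, adjusted p = 4.07e-05). SDI1, a second gene of sulfur deficiency, fell in roots by 0.77 (SE 0.15, adjusted p = 0.00201) with a shoot change of 0.15. NAS4, a nicotianamine synthase of iron handling, rose in roots by 2.72 (SE 0.31, adjusted p = 6.99e-06) and in shoots by 0.91 (SE 0.25, adjusted p = 0.0121), a difference of 1.82 (SE 0.42, adjusted p = 0.00416). IRT1, the root iron transporter, rose in shoots by 1.73 (SE 0.32, adjusted p = 0.000992) and had a root change of 0.18.

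**Figure D5:**
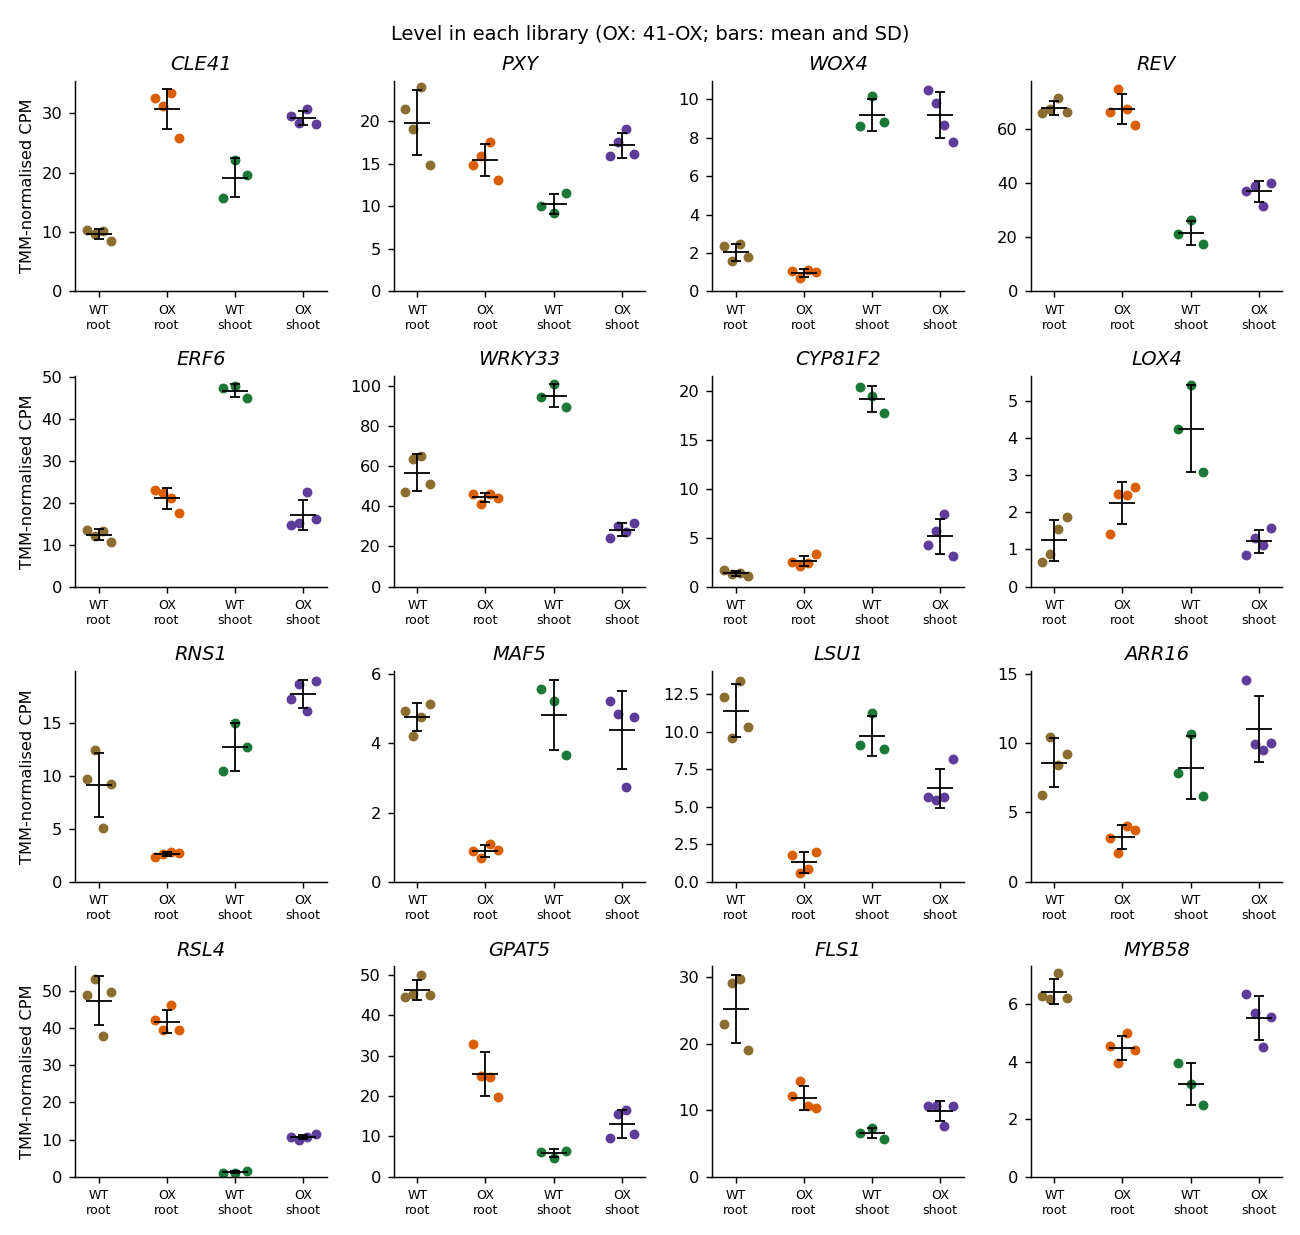
Level of 16 genes in each library (points, TMM-normalised CPM, linear axes from 0) with the mean and SD of each group. ERF6 and CYP81F2 are higher in 41-OX roots and lower in 41-OX shoots, RNS1, MAF5, LSU1 and ARR16 are lower mainly in 41-OX roots, and FLS1, GPAT5 and MYB58 are lower in 41-OX roots and higher in 41-OX shoots.

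Genes of the root surface rose in 41-OX shoots, and most were not called in 41-OX roots. Of 17 measured root epidermis and root hair genes, 15 rose in shoots and 0 fell, and 2 rose in roots and 0 fell. These are 88.2% of the list in shoots and 11.8% in roots, against 26.2% and 11.8% of all genes tested. For the difference 14 were called below and 0 above (82.4%, against 17.9% of all genes tested). The list's median shoot change was 2.80 and its median root change 0.04. RSL4, a factor that sets root hair growth, stood at 1.06, 1.01 and 1.47 CPM in WT shoots and 10.8, 9.83, 10.8 and 11.4 CPM in 41-OX shoots. Root levels were 37.95 to 53.1 CPM in WT and 39.3 to 46.0 CPM in 41-OX. The difference was -3.37 (SE 0.24, adjusted p = 5.22e-08). RHD2, the NADPH oxidase of growing hairs, and MRH6 had shoot changes of 2.80 (SE 0.21) and 4.26 (SE 0.29). In the same shoots the 151 root-specific genes stood at 5.13% to 6.87% of their WT root level, and the part of that RNA in these values was not tested.

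Endodermis and suberin genes held 2 patterns. Of 15 measured members, 12 rose and 0 fell in shoots, and 4 fell and 0 rose in roots. These are 80.0% of the list in shoots and 26.7% in roots, against 26.2% and 11.8% of all genes tested. For the difference 13 were called below and 0 above (86.7%, against 17.9% of all genes tested), with a median of -1.35. Casparian strip genes such as CASP1, with a root change of 0.21 and a shoot change of 1.56, and their regulator MYB36, with -0.16 and 1.07, moved in shoots alone. The other pattern was a fall in roots, seen in 4 suberin genes. GPAT5, an acyltransferase of suberin synthesis, stood at 44.6, 45.4, 49.9 and 44.9 CPM in WT roots and at 32.8, 24.9, 24.7 and 19.7 CPM in 41-OX roots. Shoot levels were 6.23, 4.63 and 6.47 CPM in WT and at 9.48, 15.5, 16.6 and 10.6 CPM in 41-OX. No groups overlapped within an organ, and the difference was -2.04 (SE 0.27, adjusted p = 3.33e-05). FAR4, a fatty acyl reductase, fell in roots by 1.45 (SE 0.15, adjusted p = 8.28e-06), and KCS2, a fatty acid elongase, fell in roots by 1.13 (SE 0.14, adjusted p = 3.97e-05) and rose in shoots by 0.62 (SE 0.20, adjusted p = 0.0312). CASP1 was chosen after its values were seen.

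Photosynthetic and stomatal genes were not called for the difference. All 18 photosynthetic members had a positive difference, with a median of 1.70, a median root change of 1.57 and a median shoot change of -0.27, but 0 passed the test in any contrast. The 4 mesophyll markers summed to 1356 CPM in 41-OX root 4 and to a median of 184 CPM over the 41-OX roots. Of 11 stomatal lineage genes, 2 rose in shoots (18.2%, against 26.2% of all genes tested) and 0 were called for the difference.

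Beyond the lists, the genes called in opposite directions with the largest smaller change were led by root genes. XTH26, a xyloglucan endotransglucosylase, stood at 30.6, 45.3, 20.9 and 34.3 CPM in WT roots and 16.5, 7.80, 15.3 and 7.40 CPM in 41-OX roots. In shoots the values were 0.397, 0.402 and 0.735 CPM in WT and 8.91, 10.3, 9.97 and 7.27 CPM in 41-OX. No groups overlapped within an organ, and the difference was -5.61 (SE 0.66, adjusted p = 4.92e-05). PEN3, here the locus AT5G36150 of a pentacyclic triterpene synthase, fell in roots by 1.67 (SE 0.22, adjusted p = 3.19e-05) and rose in shoots by 1.66 (SE 0.44, adjusted p = 0.00861). GPAT7, an acyltransferase of the GPAT5 family, fell in roots by 1.21 (SE 0.18, adjusted p = 0.000142) and rose in shoots by 1.54 (SE 0.40, adjusted p = 0.00711). In the other direction, RAB18, a dehydrin induced by abscisic acid, rose in roots by 0.99 (SE 0.28, adjusted p = 0.0257) and fell in shoots by 0.86 (SE 0.18, adjusted p = 0.00188). RAB18 was highest in 41-OX root 4 at 7.60 CPM, against 3.21, 5.09 and 4.41 CPM in 41-OX roots 1 to 3.

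Some called genes have an even level between organs in pxy libraries, though not always in WT. Among those within 1.5-fold in pxy libraries, MAF5, a MADS-box flowering repressor of the FLC clade, stood at 4.94, 4.21, 4.75 and 5.15 CPM in WT roots and 0.895, 0.678, 1.102 and 0.925 CPM in 41-OX roots. In shoots it was at 5.56, 5.23 and 3.68 CPM in WT and 5.23, 4.86, 2.73 and 4.76 CPM in 41-OX. The root groups were far apart and the shoot groups overlapped. MAF5 fell in roots by 2.37 (SE 0.23, adjusted p = 1.42e-06), and the difference was -2.24 (SE 0.32, adjusted p = 6.23e-05). RNS1, a secreted ribonuclease of phosphate starvation, wounding and senescence, stood at 9.71, 12.4, 5.07 and 9.24 CPM in WT roots and 2.31, 2.60, 2.80 and 2.67 CPM in 41-OX roots. It stood at 10.5, 14.99 and 12.6 CPM in WT shoots and 17.3, 18.6, 16.1 and 18.9 CPM in 41-OX shoots. RNS1 fell in roots by 1.80 (SE 0.23, adjusted p = 2.36e-05), its shoot change of 0.47 was not called, and the difference was -2.27 (SE 0.30, adjusted p = 3.03e-05). RNS1 levels of WT and 41-OX did not overlap in either organ.

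Other genes that are even in pxy libraries moved in roots, in shoots or in both. AT3G18900 fell in roots by 1.15 (SE 0.18, adjusted p = 0.000189) and rose in shoots by 1.00 (SE 0.17, adjusted p = 0.000275). AT5G12280 fell in roots by 2.23 (SE 0.21, adjusted p = 9.89e-07) with a shoot change of -0.16. AT1G17960 stood at 12.1, 13.6 and 14.7 CPM in WT shoots and 47.0, 45.9, 40.7 and 46.9 CPM in 41-OX shoots, a rise of 1.75 (SE 0.14, adjusted p = 5.89e-08), with a root change of -0.30. Above 0, AT2G32210 fell in shoots from 8.74, 13.7 and 8.68 CPM to 0.849, 1.18, 1.77 and 1.72 CPM. Its difference was the largest of the genes named as even in pxy libraries, 3.63 (SE 0.40, adjusted p = 3.07e-06). In WT it was not even, since WT roots stood at 0.888 CPM in replicate 4 and at 1.67 to 1.79 CPM in the others. MOT1, a molybdate transporter, rose in roots from 1.67, 2.06, 2.49 and 2.398 CPM to 4.32, 4.29, 4.41 and 5.24 CPM, a change of 1.07 (SE 0.22, adjusted p = 0.00308), and had a difference of 2.02 (SE 0.50, adjusted p = 0.00768). ERF105, a stress-induced ERF, fell in shoots by 2.35 (SE 0.39, adjusted p = 0.00056). It held 123, 439 and 80 counts in WT shoots 1, 3 and 4, and 26, 34, 41 and 40 in 41-OX shoots. WT roots held 51, 40, 48 and 42 counts of ERF105. The difference of ERF105 was still called without WT shoot 3.

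The largest differences of all fell on genes near 0 in an organ. The 8 largest below were at 0 counts in all 3 WT shoots and at 0.161 to 2.11 CPM in 41-OX shoots. Against a floor of 3 counts over the WT shoots, AT5G43175 was at least 14.4-fold higher in 41-OX shoots, AT1G74830 at least 13.8-fold and CPK25, a calcium-dependent protein kinase, at least 11.6-fold. All 8 are root-high in pxy libraries, and all 8 calls were kept without 41-OX root 4. The 8 largest above were at 0 to 0.502 CPM in WT roots, and each was highest in replicate 4 among the 41-OX roots. Without 41-OX root 4, 5 of these 8 calls were lost and 3 were kept. NAC036, a NAC factor, was at 0 counts in all WT roots and at 0.224, 0.113, 0.170 and 1.03 CPM in 41-OX roots, at least 5.63-fold higher against the same floor over the WT roots. Of its 16 counts, 10 were in 41-OX root 4, and without that library it was at least 2.72-fold higher. In shoots NAC036 fell from 10.99, 13.98 and 8.38 CPM to 4.39, 2.84, 3.22 and 2.51 CPM, a change of -1.80 (SE 0.29, adjusted p = 0.000257).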

How the data were processed

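Messenger RNA of roots and shoots of WT, 41-OX and pxy seedlings was sequenced, and the deposited table holds raw read counts per locus that the authors made with CASAVA, TopHat2 and HTSeq on TAIR10, per the submitters' processing notes; versions and strand setting are not given in the sources used here. The design text names technical replicates, which the table does not hold apart. Rows naming no gene (no feature 1.82% to 3.41%, ambiguous 1.80% to 2.08%) were left out. From these counts, edgeR 4.0.16 (R 4.3.3) filtered low counts, applied TMM scaling and ran quasi-likelihood tests on 15 libraries with Benjamini-Hochberg adjustment over 21295 genes, and SEs were derived from the F statistics. The test was checked on simulated counts. DESeq2 1.42.0, other filters, other library sets and leaving out each library were alternatives. P-values measure the spread between these samples, and counting intervals and floors (3 counts) cover counting error only.

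Genes were named by rule: CLE41 and PXY, then among genes called for the difference, with a mean log2 CPM of 1 or more and WT and 41-OX apart in 1 organ or both, the 8 largest differences each way, 6 each way among genes within 1.5-fold between organs in pxy libraries, up to 6 each way among genes called in opposite directions, and up to 4 called members of each list. Some of the 111 genes so named are not described. Organ ratios used a pseudocount of 0.5 CPM. The members, the 23 lists (390 of 409 loci measured) and the tests were chosen with earlier results of these data known.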

Additional observations from a re-analysis of the deposited data

Results flagged for a closer look

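The change from WT to 41-OX differed between organs by the test of the difference itself for 1302 genes with a root change above the shoot change and for 2514 below it. The library labelled pxy root 2, which no comparison uses, held shoot-specific genes at a median of 92.9% of the WT shoot mean, against 0.434% to 0.822% in the other pxy roots.

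A single library lay far from the other 3 of its group in 32 of 339 groups of 4 examined, where chance gives about 1 in 20. The WT shoots, a group of 3, were not examined, so a WT shoot that stood apart would not be listed here. The tally includes groups of very few counts, for which that rate does not hold. Of the 32, 9 fell on 41-OX root 4. They were the shoot-specific genes at 11.5% of the WT shoot mean, NAC036 at 1.03 CPM, COR15B at 1.64 CPM, NAC019 at 1.95 CPM, AT1G53870 at 1.54 CPM, MOT1 at 5.24 CPM, AT5G12280 at 2.47 CPM, CBP60G at 2.67 CPM and CYCD3-1 at 18.3 CPM. CYCD3-1 was lower there than in the other 41-OX roots, and the other 8 were higher.

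Among WT roots, replicate 1 stood apart for COR15B and EXPA5, each at 0.0837 CPM, which is 1 count against 0 in the other WT roots. Replicate 2 stood apart for AT1G74830 at 18.7 CPM and MRH6 at 53.3 CPM. Replicate 3 stood apart for MYB58 at 7.09 CPM, CYCA1-1 at 26.6 CPM, WRKY70 at 20.8 CPM, ARR3 at 37.6 CPM and GPAT5 at 49.9 CPM. Replicate 4 stood apart for AT2G32210 at 0.888 CPM, AT4G34790 at 0.444 CPM (5 counts against 2 in each other WT root) and CYCD3-2 at 56.8 CPM. Among 41-OX roots, replicate 1 stood apart for LOX4 at 1.42 CPM and KCS2 at 33.0 CPM.

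Among 41-OX shoots, replicate 1 stood apart for ARR16 at 14.6 CPM and replicate 2 for VSP1 at 19.1 CPM. Replicate 3 stood apart for AT1G17960 at 40.7 CPM, RAB18 at 20.4 CPM, ERF6 at 22.5 CPM and FLS1 at 7.56 CPM. Replicate 4 stood apart for GA2OX6 at 28.0 CPM, ELF4 at 34.2 CPM and LSU1 at 8.19 CPM.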

How the results depend on the processing

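The difference was called for 3568 genes with the replicate number as a block, 3370 of them shared with the 3816 called without it. Same-numbered samples did not deviate together as a set: over 21 pairs the correlation ran from -0.498 to 0.344 with a median of 0.00200, and 4 pairs were over 0.1. Pairs of different numbers had a median of -0.00282 and ran as high as 0.573, for WT root 1 with 41-OX root 4. The correlations therefore cannot show whether same-numbered samples shared plates or sowings. With all 24 libraries in the fit, which takes in WT shoot 2 and the library labelled pxy root 2, the counts of called genes were 402 for the difference, 322 in roots, 1231 in shoots and 6 in opposite directions, and CLE41 had an adjusted p of 0.0868 for the difference. With 22 libraries, without those 2, they were 3418, 1934, 4840 and 279, and PHV (adjusted p = 0.0764), ATHB15 (0.181), RGA1 (0.0501) and ELF4 (0.0647) lost their call. With WT shoot 2 added to the 15 libraries they were 3811, 2392, 5414 and 384, and GASA4 lost its call (adjusted p = 0.390). With the p-values of the main fit adjusted over genes within 1.5-fold between organs alone, they were 507, 580, 1025 and 26. There, calls above outnumbered those below (292 against 215), opposite to all genes tested. With an absolute log2 value over 1 the 4 counts were 1706, 472, 1722 and 43. Leaving out each library gave 3159 to 4003 for the difference, 1696 to 3161 in roots, 4233 to 6740 in shoots and 285 to 439 in opposite directions. DESeq2 called 4225 genes for the difference. The alternatives were run for these 4 counts and for the 111 genes named by rule, of which none reversed; they were not run for other genes or for counts within lists. Apart from the values given, the cause of a change was not tested. Depth limits the genes near 0 in an organ, whose fitted values are no bounds, and 3 WT shoots limit every shoot change.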

Other observations

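Some list genes moved the same way in both organs. Of the list loci, 30 were called in both organs in the same direction, and for 21 of them the difference was not called (11 higher and 10 lower in 41-OX). Those named here were chosen after their values were seen, and a difference that was not called does not show equal changes. GH3.2, an auxin-conjugating enzyme, rose by 1.03 in roots and 1.21 in shoots, with a difference of -0.18 (SE 0.22, edgeR adjusted p = 0.612). SULTR2-1, a sulfate transporter of vascular tissue, fell by 1.16 in roots and 1.14 in shoots, with a difference of -0.01 (SE 0.28, adjusted p = 0.984). CKX4, a cytokinin oxidase, fell by 1.52 in roots and by 1.1 in shoots, with a difference of -0.42 (SE 0.42, adjusted p = 0.524). LUX, a member of the evening complex, rose by 0.38 in roots and 0.39 in shoots, with a difference of -0.01 (SE 0.11, adjusted p = 0.948). VND6, a NAC factor of xylem vessel formation, rose by 0.66 in roots and 0.83 in shoots, with a difference of -0.16 (SE 0.28, adjusted p = 0.727).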
